A study of Nicotiana tabacum with 6 samples.

Results

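Of the 69500 gene models listed for tobacco (Nicotiana tabacum), 123 carried the words alpha crystallin or Hsp20 in their description, and these are the models described here. The study measured RNA in young seedling leaves of the variety NC82, in 3 RNA-seq libraries from plants overexpressing the gene NtPhyA and 3 from wild-type plants. All 6 libraries came from leaves kept at 4 °C for 24 h, so the labelled difference between the groups is the plant material, and the data hold no unchilled leaf. Batches are not labelled, and any that follow the groups cannot be told apart from them. The promoter of the transgene, the number of transgenic lines and whether the replicates were separate plants are not stated. The p-values below measure the spread among libraries, and that spread may be technical.

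Small heat shock proteins are chaperones built around an alpha-crystallin domain. They form oligomers, bind proteins that are beginning to unfold and keep them soluble until chaperones of the HSP70 and HSP100 families can refold them. Plants have many of them, with forms in the cytosol, chloroplast, mitochondrion and endoplasmic reticulum, and many are strongly induced by heat and some by other stresses. Proteins with a CS domain have the same fold and are classed with HSP20-like chaperones, but they include co-chaperones of HSP90 such as p23 and are not small heat shock proteins in the strict sense.

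The descriptions split the 123 models accordingly. An alpha-crystallin domain was named in 94, a CS domain without it in 26, and the words HSP20-like chaperone alone in 3. The name small heat shock protein therefore fits at most 94 of the 123 by description, as some of the 94 also name a further domain. The models outside the 94 are given below under their own description. Of the 123 models, 39 had a mean of at least 1 unit of the deposited normalized abundance over the 6 libraries and were tested, 59 lay above 0 but below that mean, and 25 were listed at 0 in all 6 libraries. The tested models were 24 of the 94 with an alpha-crystallin domain, 13 of the 26 with a CS domain and 2 of the 3 others. Nearest to the minimum were Nitab4.5_0000615g0070 with a mean of 1.06 and Nitab4.5_0000286g0090 with a mean of 0.963, both with an alpha-crystallin domain. The files give no symbols, compartments or coordinates for these models, and as near-identical copies are usual in this family and in the tobacco genome, it is uncertain how reads were shared out among copies.

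The library totals ran from 440137 to 475581 in the overexpression libraries and from 450972 to 568208 in wild type, with the highest in wild-type replicate 3. Leaf markers were abundant in all 6 libraries. Chlorophyll a/b-binding models summed to between 1651 and 8217 in overexpression leaves and between 1296 and 6172 in wild type, and Rubisco small subunit models to between 11895 and 29354 in overexpression leaves and between 6560 and 22073 in wild type. Oleosins, which coat seed oil bodies, summed to at most 20.8 in overexpression leaves and 24.4 in wild type. The seed storage pattern matched 318 models, 205 of them lipid transfer proteins, so its sums of 2268 to 4569 in overexpression leaves and 2973 to 6152 in wild type say little about seed tissue. The pollen pattern matched pollen allergen and extensin families that are not confined to pollen, at 995 to 1407 in overexpression leaves and 825 to 1527 in wild type, and the casparian pattern matched 0 models.

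The 123 models summed to 627, 700.4 and 618 in overexpression libraries 1, 2 and 3, against 707, 720.0 and 913 in wild-type libraries 1, 2 and 3, and every overexpression sum lay below every wild-type sum. As a share of the library total they made up 0.132, 0.155 and 0.140% of the summed abundance in overexpression libraries 1, 2 and 3, against 0.153, 0.160 and 0.161% in wild-type libraries 1, 2 and 3. On that scale the groups overlapped, through overexpression replicate 2. The alpha-crystallin models summed to 242, 305 and 330 in overexpression libraries 1, 2 and 3, against 290, 336 and 517 in wild type. The highest sum was that of wild-type replicate 3, and the other 5 libraries lay within a narrower range that both groups shared. The CS-domain models summed to 305, 314 and 239 in the overexpression libraries, against 328, 319 and 321 in wild type, without overlap. As a share of the library total the CS-domain models overlapped, at 0.0642, 0.0695 and 0.0543% in the overexpression libraries, against 0.0712, 0.0707 and 0.0566% in wild type. In sums of bulk tissue, fewer cells that express a gene and less of its RNA per cell cannot be told apart.

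**Figure D1:**
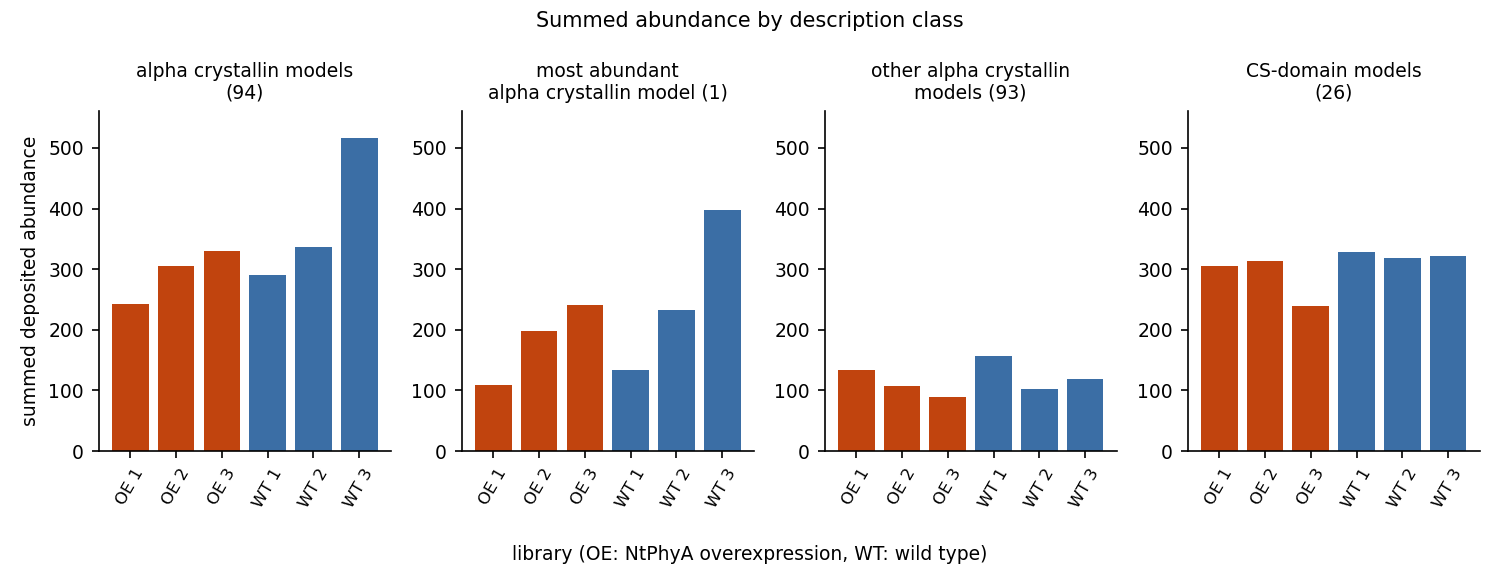
Summed deposited abundance (vertical axis) in each of the 6 libraries (horizontal axis, NtPhyA overexpression left in red, wild type right in blue) for the 94 alpha-crystallin models, for the most abundant of them, for the other 93 and for the 26 CS-domain models. The alpha-crystallin sum was highest in wild-type replicate 3, at 517, and most of that height was 1 model.

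One model held a large part of the alpha-crystallin abundance, and most of it in replicates 2 and 3 of both materials. Nitab4.5_0003264g0010 had an abundance of 109, 198 and 240 in overexpression libraries 1, 2 and 3, against 133, 233 and 397 in wild-type libraries 1, 2 and 3. Within each material it was lowest in replicate 1 and highest in replicate 3, and the groups overlapped widely. It supplied 44.9, 64.9 and 72.8% of the alpha-crystallin sum in the overexpression libraries, against 45.9, 69.4 and 76.9% in wild type. Its mean ranked 275 among the 69500 models, above 98.5% of the tested ones. The log2 difference (overexpression minus wild type, on the log2(abundance + 1) scale, which understates the change of models with low values) was -0.42 ± 0.49 (SE, n = 3 each), with a 95% interval from -1.56 to 0.73 and a limma adjusted p of 0.999. Single libraries moved it widely, to -0.08 when overexpression replicate 1 was left out, to -0.65 for overexpression replicate 3, to -0.81 for wild-type replicate 1 and to -0.03 for wild-type replicate 3. Within each material, the chlorophyll a/b-binding sum ran the other way, at 8217, 4416 and 1651 in overexpression libraries 1, 2 and 3 and 6172, 3152 and 1296 in wild type. What part the difference in chlorophyll-binding transcripts has in the level of this model was not tested. Without it, the other 93 alpha-crystallin models summed to 133, 107 and 89.8 in the overexpression libraries, against 157, 103 and 120 in wild type, and the groups overlapped.

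The next most abundant alpha-crystallin model was far lower. Nitab4.5_0000744g0050 had an abundance of 41.9, 24.1 and 15.0 in overexpression libraries 1, 2 and 3, against 22.5, 15.2 and 14.0 in wild type. Its values were highest in replicate 1 of both materials, where Nitab4.5_0003264g0010 was lowest. It had the highest log2 difference of the 39 tested models, 0.53 ± 0.40 (SE, n = 3 each; limma adjusted p = 0.999), and the groups overlapped. The difference was 0.17 without overexpression replicate 1 and 0.88 without overexpression replicate 3. Nitab4.5_0008481g0040 followed at 8.97 to 12.9 in the overexpression libraries and 9.99 to 14.3 in wild type. Of the 24 tested alpha-crystallin models, 16 had a mean below 5, and the median of the 24 means was 2.30.

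Some alpha-crystallin models name a further domain. Nitab4.5_0000464g0040 adds an ARID/BRIGHT domain, which binds DNA, and had an abundance of 6.65, 8.20 and 5.94 in the overexpression libraries, against 10.03, 7.56 and 3.32 in wild type. Nitab4.5_0002487g0010 is described as BYPASS-related, after an Arabidopsis gene known from root-to-shoot signalling, and was at 6.37, 8.83 and 11.3 in the overexpression libraries, against 6.39, 10.6 and 9.56 in wild type. The groups overlapped in both models, with log2 differences of 0.09 ± 0.38 for the ARID model and -0.01 ± 0.31 for the BYPASS-related one (SE, n = 3 each; limma adjusted p = 0.999 for both).

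The CS-domain and HSP20-like models were fewer but individually more abundant. They supplied 10 of the 12 most abundant models of the 123, 8 with a CS domain and 2 described as HSP20-like chaperone alone. The tested CS-domain models had a median abundance of 16.2. Such comparisons of level between models assume that the deposited values are per transcript length, which the sources used here do not state.

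**Figure D2:**
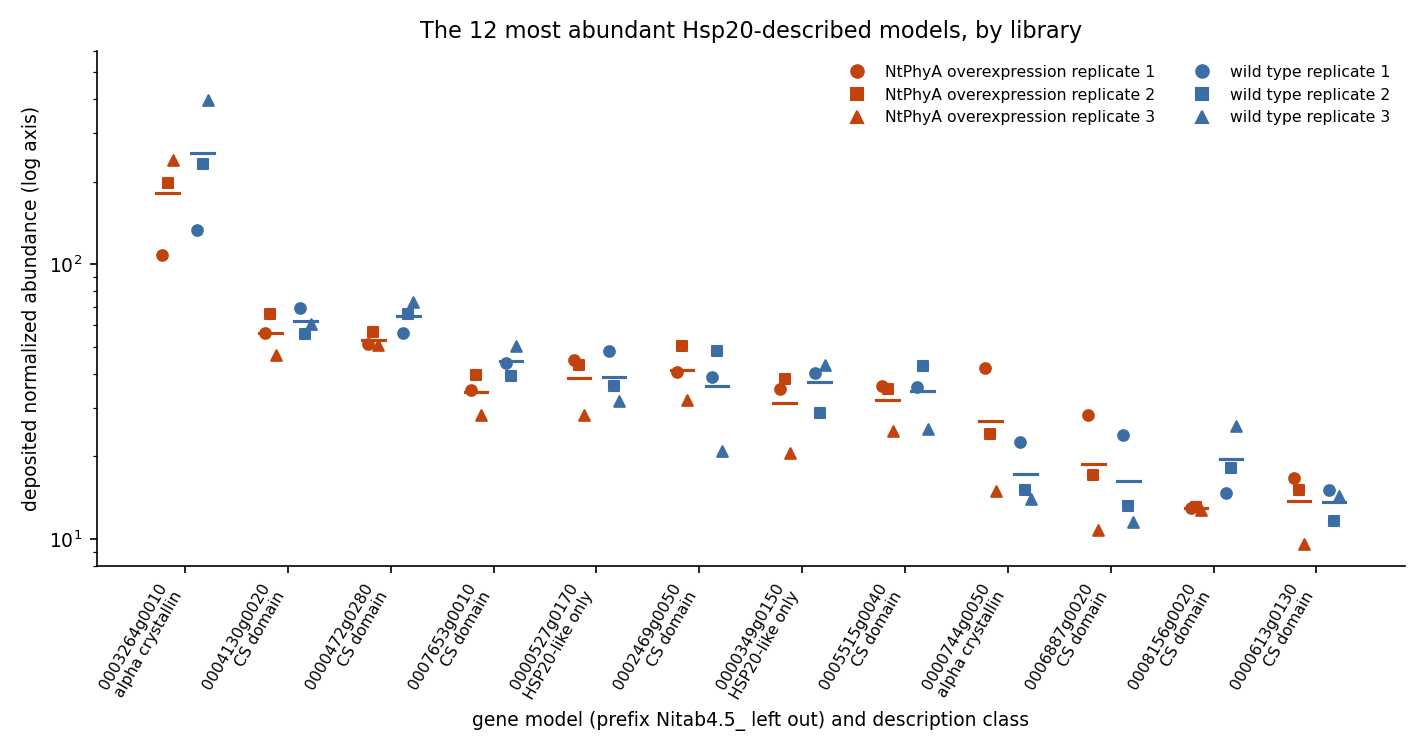
Deposited normalized abundance (vertical log axis) of the 12 most abundant of the 123 models in each library, with NtPhyA overexpression left in red and wild type right in blue, symbols for replicate numbers and a dash for the group mean. Nitab4.5_0003264g0010 stands above the other 11, which lie between 9.58 and 72.8, and the groups overlap in 11 of the 12 models, all but Nitab4.5_0008156g0020.

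The most abundant CS-domain model, Nitab4.5_0004130g0020, had an abundance of 56.4, 65.9 and 46.8 in overexpression libraries 1, 2 and 3, against 69.7, 55.7 and 60.7 in wild type. Next was Nitab4.5_0000472g0280, at 51.1, 56.8 and 51.0 in the overexpression libraries, against 56.2, 66.0 and 72.8 in wild type. It joins tetratricopeptide repeats, a CS domain and an SGS domain, the makeup known from SGT1, a co-chaperone that works with HSP90 in plant immune receptors. Their means, 59.2 and 59.0, differed by less than the spread between libraries. A second model of the same makeup, Nitab4.5_0007653g0010, was at 34.9, 39.6 and 28.3 in the overexpression libraries, against 43.7, 39.4 and 50.3 in wild type. In both SGT1-like models the groups overlapped by a single narrow step, and the log2 differences were -0.28 ± 0.24 for Nitab4.5_0000472g0280 and -0.37 ± 0.25 for Nitab4.5_0007653g0010 (SE, n = 3 each; limma adjusted p = 0.999 for both). The intervals, from -0.84 to 0.27 and from -0.96 to 0.21, lay between log2 differences of -1 and 1 on the log2(abundance + 1) scale.

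Below these, 4 models lay close together in level, with means between 33.3 and 38.8. The HSP20-like model Nitab4.5_0000527g0170 was at 44.7, 43.2 and 28.4 in the overexpression libraries, against 48.6, 36.3 and 31.9 in wild type. The CS-domain model Nitab4.5_0002469g0050 was at 40.7, 50.6 and 32.2 in the overexpression libraries, against 38.9, 48.3 and 21.0 in wild type. Both of these models had their lowest value in replicate 3 of each material, as did Nitab4.5_0005515g0040, given below. The HSP20-like model Nitab4.5_0000349g0150 was at 35.2, 38.2 and 20.6 in the overexpression libraries, against 40.3, 28.9 and 43.0 in wild type. The CS-domain model Nitab4.5_0005515g0040 was at 36.2, 35.2 and 24.7 in the overexpression libraries, against 35.8, 42.7 and 25.2 in wild type. The groups overlapped in all 4, and the log2 differences ran from -0.27 to 0.24. Nitab4.5_0006887g0020 joins a CS and an SGS domain to the N-terminal part of Siah-interacting protein, which in mammals links a ubiquitin ligase to its targets. It was at 28.3, 17.2 and 10.8 in the overexpression libraries, against 24.0, 13.3 and 11.6 in wild type, with replicate 1 highest in both materials and a log2 difference of 0.16 ± 0.42 (SE, n = 3 each; limma adjusted p = 0.999).

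A pair of CS-domain models had tighter values in one material than in the other. Nitab4.5_0008156g0020 had an abundance of 13.0, 13.1 and 12.7 in overexpression libraries 1, 2 and 3, against 14.7, 18.2 and 25.7 in wild type. All 3 overexpression values lay below all 3 wild-type values, with a log2 difference of -0.52 ± 0.27 (SE, n = 3 each; unadjusted p = 0.0917, limma adjusted p = 0.999). Nitab4.5_0000010g0300 was at 2.32, 2.71 and 5.44 in the overexpression libraries, against 5.04, 0.74 and 20.8 in wild type. Wild-type replicate 3 alone set the higher wild-type mean, and the log2 difference of -0.51 ± 0.84 was 0.41 without that library. Nitab4.5_0001717g0010 was at 5.87, 3.04 and 3.90 in the overexpression libraries, against 4.97, 8.72 and 7.97 in wild type, with overlap through the first overexpression value and a log2 difference of -0.65 ± 0.32 (SE, n = 3 each; limma adjusted p = 0.999). Of the rest of the 12 most abundant and of the highest differences, Nitab4.5_0000613g0130 was at 16.6, 15.1 and 9.58 in the overexpression libraries, against 15.1, 11.7 and 14.4 in wild type. Nitab4.5_0001000g0100 was at 9.70, 7.16 and 7.48 in the overexpression libraries, against 7.91, 6.83 and 6.67 in wild type. The groups overlapped in both.

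The question put to the data was whether the models differ between the plant materials. No model of the 123 passed the test across all 17962 tested models (limma, Benjamini-Hochberg adjusted p below 0.05), where 0.00557% of all tested models, a single model, passed. Among the 39 tested models, 24 had a log2 difference below 0 and 15 above, against 51.7% below 0 over all tested models. The median log2 difference was -0.14 over the 39 models and -0.01 over all tested models. It was -0.18 for the alpha-crystallin models, with 14 below 0 and 10 above, and -0.10 for the CS-domain models, with 8 below 0 and 5 above. Scaling every library to the same total brought the median of the 39 to -0.04 and that of all tested models to 0.07, and without overexpression replicate 3 the median of the 39 was -0.01. The 95% interval lay wholly between -1 and 1 on the log2(abundance + 1) scale for 14 of the 39. As that scale understates the change at low values, such an interval can still hold a doubling or a halving of abundance. The others were not measured closely enough to leave out a log2 difference of that size.

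**Figure D3:**
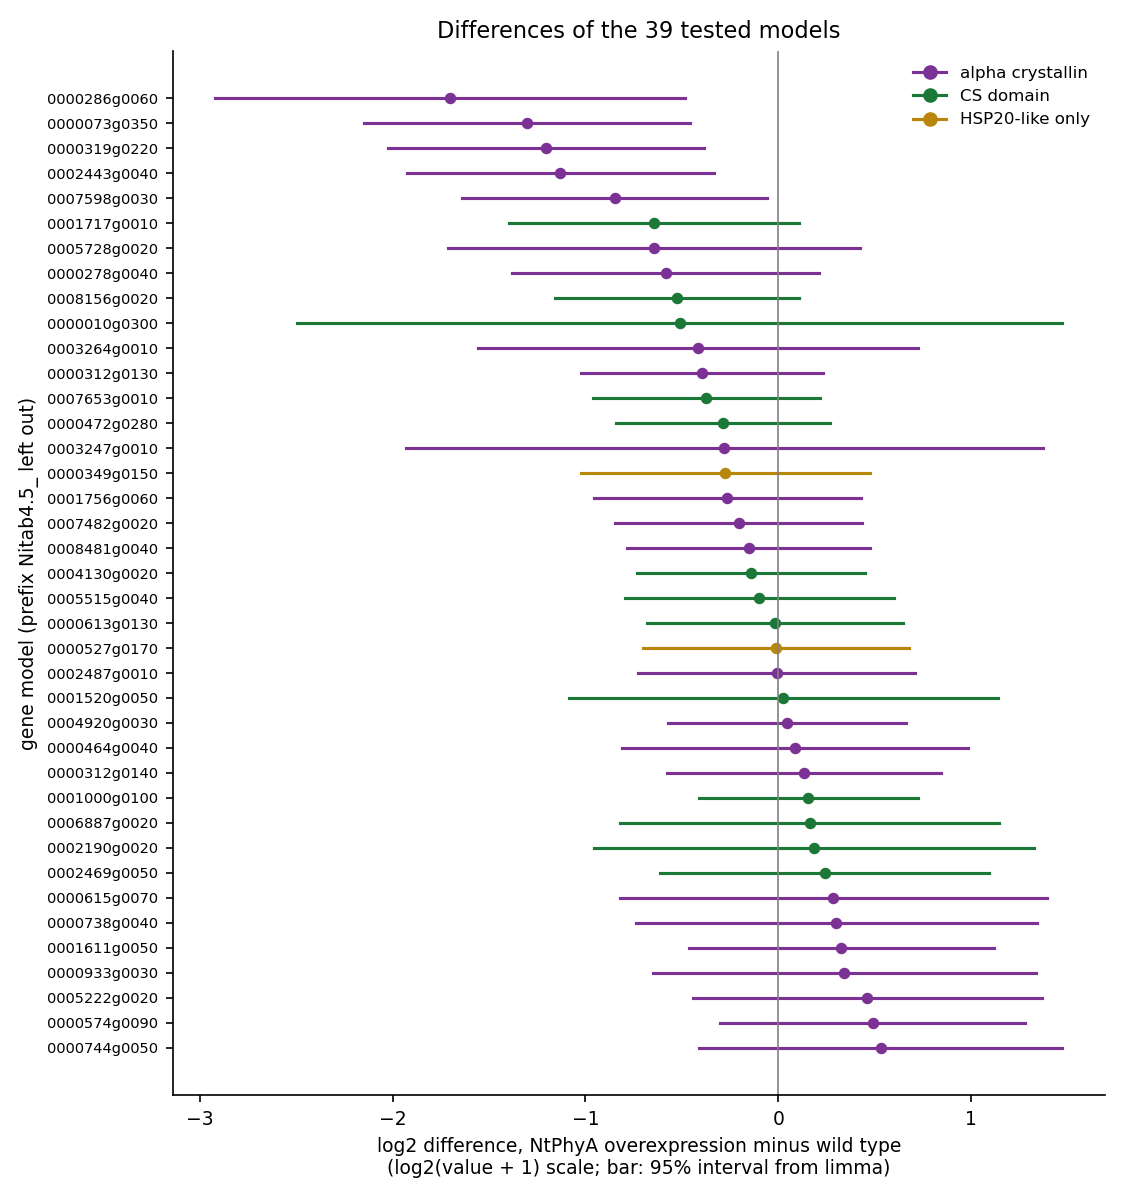
Log2 difference, NtPhyA overexpression minus wild type (horizontal axis), of each of the 39 tested models (vertical axis), with 95% intervals from limma and colours for the description class. The intervals of 5 alpha-crystallin models lie wholly below 0, and no model has an interval wholly above 0.

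At an unadjusted p below 0.05 there were 5 models, all with an alpha-crystallin domain and all lower in the overexpression leaves. They are 5 of 39 tested models, where 1.35% of all tested models were lower at that p and 1.47% higher. None was called, with adjusted p of 0.999 for each. The one-sided count did not hold under every alternative. Without overexpression replicate 3, 6 models had such a p, 4 of them lower and 2 higher, Nitab4.5_0000744g0050 and Nitab4.5_0005222g0020. In 7 of the 39 models all overexpression values lay below all wild-type values, against 3.86% of all tested models, and in 0 of 39 above them, against 4.01% (in either direction 7 of 39, against 7.87%). With every library scaled to the same total, 5 of 39 lay below without overlap, against 2.95% of all tested models, and 0 above, against 5.29%. The 7 were the 5 models just counted, the CS-domain model Nitab4.5_0008156g0020 and the alpha-crystallin model Nitab4.5_0000312g0130, and after that scaling the groups overlapped in Nitab4.5_0000312g0130 and Nitab4.5_0007598g0030. The 39 models had to reach a mean of 1 over both groups, and 84 of the 123 did not, so these counts do not describe all 123.

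The widest difference was in Nitab4.5_0000286g0060, with an abundance of 1.80, 2.29 and 2.63 in overexpression libraries 1, 2 and 3, against 16.2, 3.45 and 14.0 in wild type. The 3 overexpression values lay close together, while wild-type replicate 2 was far nearer to them than the other two. Its log2 difference was -1.70 ± 0.52 (SE, n = 3 each), with a 95% interval from -2.92 to -0.48 and an unadjusted p of 0.0129 (limma adjusted p = 0.999; 0.685 to 1.0 over the alternatives). Over the alternatives the difference ran from -2.32 to -1.34, and the unadjusted p was 0.0541 without wild-type replicate 3 and 0.0748 without both replicates 3. The overexpression mean was 0.200 times the wild-type mean.

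Nitab4.5_0000073g0350 had an abundance of 1.30, 1.33 and 0.98 in overexpression libraries 1, 2 and 3, against 7.82, 3.77 and 2.79 in wild type. Its log2 difference was -1.30 ± 0.36 (SE, n = 3 each), with an unadjusted p of 0.00786, the smallest of the 39, and a limma adjusted p of 0.999 (0.682 to 1.0 over the alternatives). Nitab4.5_0002443g0040 was at 1.45, 1.18 and 1.18 in the overexpression libraries, against 6.84, 2.82 and 3.07 in wild type, with a log2 difference of -1.13 ± 0.34 (SE, n = 3 each; limma adjusted p = 0.999). In both models wild-type replicate 1 was the highest library by a wide margin and the overexpression libraries lay close together. Over the alternatives the log2 difference stayed between -1.79 and -0.95 in Nitab4.5_0000073g0350 and between -1.55 and -0.80 in Nitab4.5_0002443g0040.

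Nitab4.5_0000319g0220 had an abundance of 1.71, 2.35 and 2.91 in overexpression libraries 1, 2 and 3, against 7.28, 3.95 and 9.64 in wild type. Here wild-type replicate 3 was highest and wild-type replicate 2 lowest, as it also was in Nitab4.5_0000286g0060. The log2 difference was -1.21 ± 0.35 (SE, n = 3 each; unadjusted p = 0.00993, limma adjusted p = 0.999). Nitab4.5_0007598g0030 was at 1.83, 1.09 and 0.69 in the overexpression libraries, against 4.23, 2.86 and 1.89 in wild type, with the highest overexpression and the lowest wild-type value nearly touching and a log2 difference of -0.85 ± 0.34 (SE, n = 3 each; unadjusted p = 0.0387, limma adjusted p = 0.999). Over the alternatives that difference ran from -1.27 to -0.63 and its unadjusted p reached 0.138, without wild-type replicate 1. Nitab4.5_0000312g0130 was at 1.23, 2.30 and 1.95 in the overexpression libraries, against 2.86, 2.40 and 2.77 in wild type, and its log2 difference of -0.40 ± 0.27 (SE, n = 3 each) had an unadjusted p of 0.180 (limma adjusted p = 0.999). A model whose identifier differs from it in the last part alone, Nitab4.5_0000312g0140, was at 1.95, 2.41 and 2.26 in the overexpression libraries, against 1.58, 1.33 and 3.13 in wild type, with overlap and a log2 difference of 0.13 ± 0.30 (limma adjusted p = 0.999).

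**Figure D4:**
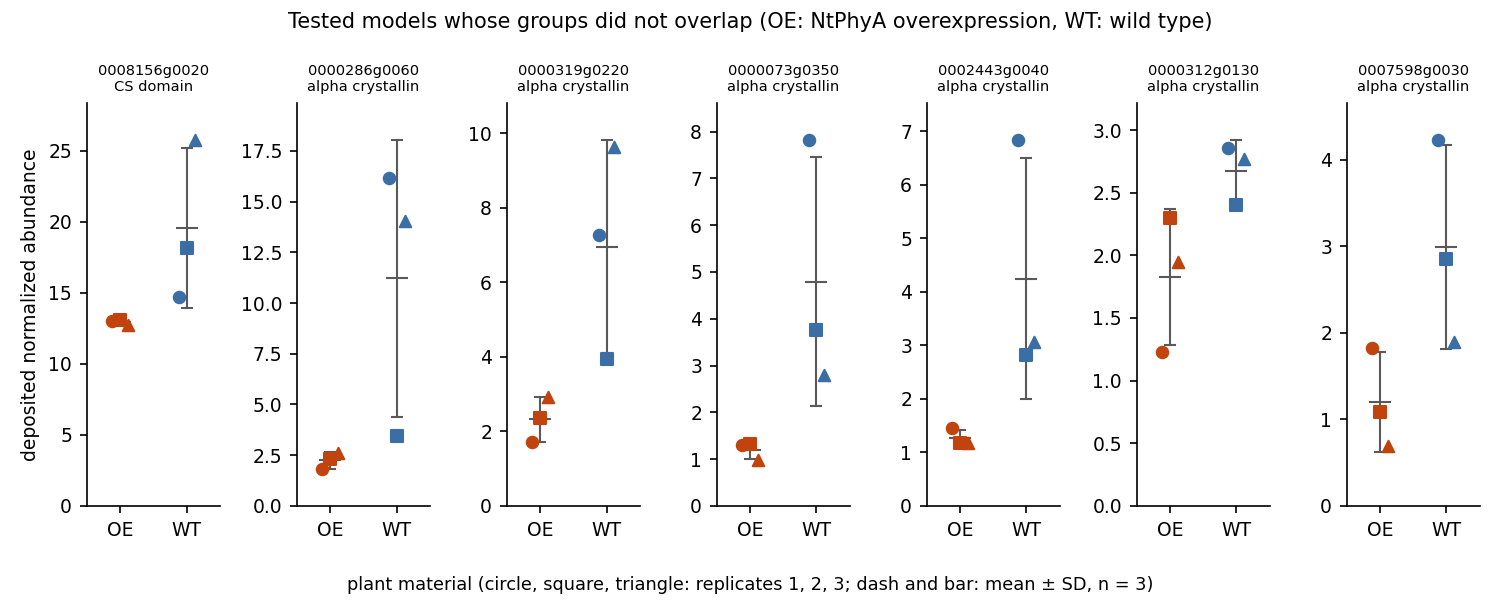
Deposited normalized abundance (vertical axes, each from 0) of the 7 tested models whose groups did not overlap, with NtPhyA overexpression left in red and wild type right in blue, symbols for replicates 1 to 3 and dashes with bars for mean ± SD (n = 3). In Nitab4.5_0000286g0060 the overexpression libraries lie between 1.80 and 2.63 and the wild-type libraries between 3.45 and 16.2.

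The low level of these models limits what the values carry. In the overexpression leaves 6 of the 7 had means from 1.20 to 2.32, and in wild type from 2.68 to 11.2. Read counts were not used here, so the counting error behind such low values is unknown.

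Identifiers of 38 of the 123 models share their first part with another of them, over 16 such first parts. The largest set, with the prefix Nitab4.5_0000286, holds 5 alpha-crystallin models, of which Nitab4.5_0000286g0060 alone was tested. This set was looked at after its values were seen. Summed, the 5 models had an abundance of 3.48, 2.35 and 2.89 in overexpression libraries 1, 2 and 3, against 22.9, 4.92 and 15.5 in wild type, and most of each sum was the tested model. Nitab4.5_0000286g0040 was at 0.13, 0 and 0 in the overexpression libraries, against 2.65, 0.34 and 0.43 in wild type. Nitab4.5_0000286g0090 was at 1.53, 0 and 0 in the overexpression libraries, against 2.83, 0.82 and 0.60 in wild type, and there the groups overlapped. Nitab4.5_0000286g0050, whose description adds a BON domain, was at 0.02 to 0.12 in the overexpression libraries and 0.18 to 0.62 in wild type. Nitab4.5_0000286g0070 was at 0 to 0.14 in the overexpression libraries and 0.13 to 0.58 in wild type. In all 5 models the highest wild-type value was that of replicate 1. Near-identical copies may share reads, so the 5 may not be separate observations. The counts of models given above and below still take each model separately.

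Of the 59 models above 0 and below the minimum, 16 were above 0 in all 6 libraries and 18 reached 1 in some library. In 5 of the 59 all overexpression values lay below all wild-type values, against 1.94% of all models in that range of means, and in 1 above them, against 4.04%. The higher one, Nitab4.5_0012752g0010, was at 0.74, 0.57 and 0.82 in the overexpression libraries, against 0.43, 0.45 and 0.46 in wild type, and is named because it was the exception. With no minimum, 98 of the 123 models entered a fit of 43495 models and none was called. In that fit 7 were lower at an unadjusted p below 0.05, against 1.08% of all models in it, and 0 were higher, against 1.46%. The 2 added to the earlier 5 were Nitab4.5_0005133g0010, at 0.12, 0 and 0 in the overexpression libraries and 0.52, 0.61 and 0.44 in wild type, and Nitab4.5_0011739g0010, listed at 0 in all 3 overexpression libraries and at 0.23, 0.13 and 0.43 in wild type. A listed 0 can be a failed estimate as well as a true absence.

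The models also varied within each material. The median within-group SD of the log2 abundance was 0.43 for the tested alpha-crystallin models, 0.34 for the CS-domain models and 0.43 for all tested models. Among models with a mean of at least 5, the widest range within a group was 3.65 log2 units in wild type for Nitab4.5_0000010g0300, followed by 1.95 in wild type for Nitab4.5_0000286g0060. Nitab4.5_0003264g0010 spanned 1.14 log2 units in overexpression leaves and 1.57 in wild type. Nitab4.5_0008156g0020 spanned 0.03 log2 units in overexpression leaves and 0.77 in wild type.

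Small heat shock proteins hand their substrates to other chaperones, and their genes are switched on by heat shock factors. In 7 lists for that network, taken by patterns on the descriptions, 264 of 622 models were tested and none was called. At an unadjusted p below 0.05, 2 were higher and 3 lower, against 1.47% and 1.35% of all tested models. Of the 3 lower, 2 were alcohol dehydrogenases, which the chaperonin pattern also matched. In 8 of the 264 all overexpression values lay above all wild-type values, against 4.01% of all tested models. In 11 of the 264 all lay below, against 3.86%. The median log2 difference of the 264 was -0.06. All these figures include the alcohol dehydrogenases.

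**Figure D5:**
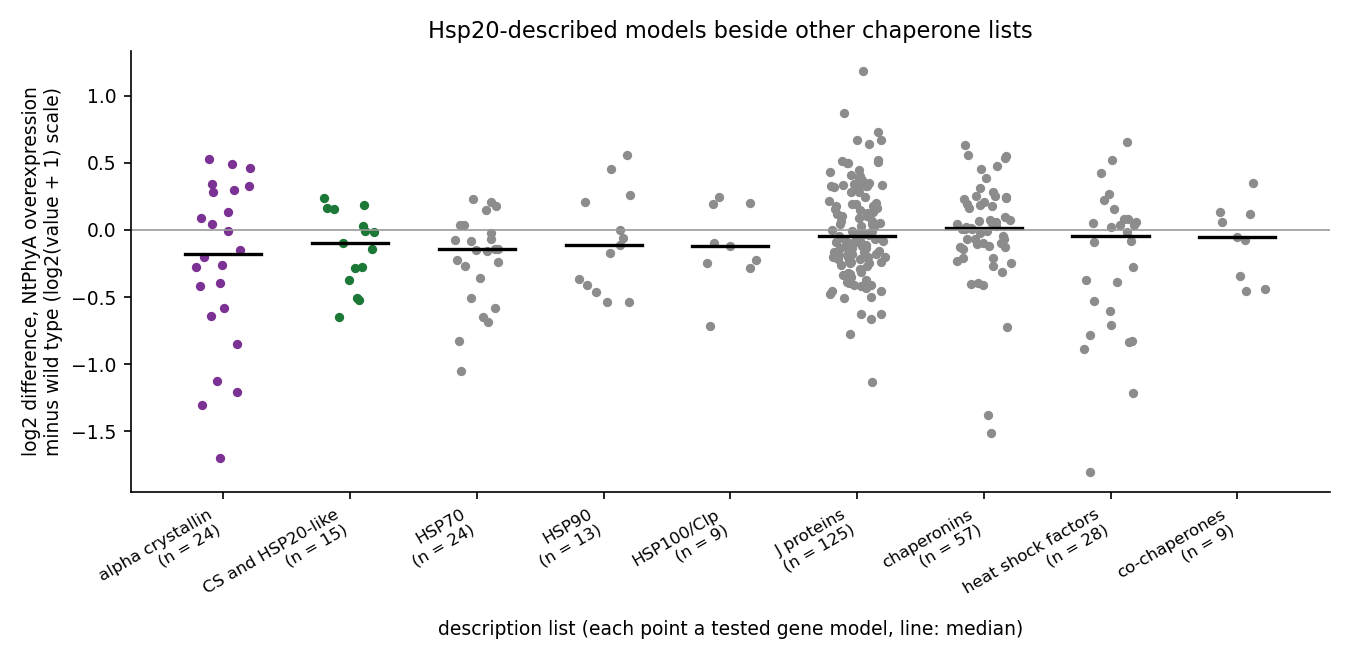
Log2 difference, NtPhyA overexpression minus wild type (vertical axis), of each tested alpha-crystallin model, each tested CS-domain or HSP20-like model and each tested model of 7 other chaperone lists (horizontal axis), with a line at the median. The medians lie between -0.18 for the alpha-crystallin models and 0.01 for the chaperonin list. That list also holds alcohol dehydrogenases, and its median without them, not drawn, is 0.07.

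The list for heat shock factors, the transcription factors that bind upstream of heat shock genes, had 28 of 59 models tested. Of the 28, 13 had differences above 0 and 15 below. Nitab4.5_0003546g0070 among them also matched the co-chaperone pattern and is counted in both lists. The most abundant model of the heat shock factor list was Nitab4.5_0000082g0150. It was at 18.6, 58.0 and 274 in overexpression libraries 1, 2 and 3, against 36.2, 187 and 254 in wild type. In each material it was lowest in replicate 1 and highest in replicate 3, and the groups overlapped. Nitab4.5_0003264g0010 had the same order, as did the HSP100/Clp model Nitab4.5_0007669g0010. Over all tested models, deviations from the group means also correlated between same-numbered libraries, at 0.56 for replicates 1 and 0.42 for replicates 3. For replicates 2 the value was -0.11. Any link between the factor and these models was not tested. The factor with the smallest p, Nitab4.5_0005648g0020, was at 1.02, 1.54 and 0.94 in the overexpression libraries, against 2.78, 1.54 and 3.54 in wild type (unadjusted p = 0.0555, limma adjusted p = 0.999).

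HSP70 chaperones, which refold proteins released by small heat shock proteins, had 24 of 70 models tested, with 6 differences above 0 and 18 below and a median of -0.15. Their most abundant model, Nitab4.5_0000349g0130, was at 850, 995 and 1431 in the overexpression libraries, against 933, 1583 and 606 in wild type, and the groups overlapped. Nitab4.5_0012222g0020, with the smallest p among them, was at 11.4, 18.3 and 11.96 in the overexpression libraries, against 20.3, 20.2 and 37.4 in wild type, without overlap (unadjusted p = 0.0406, limma adjusted p = 0.999).

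HSP90 chaperones and their activators, the partners of the CS-domain co-chaperones, had 13 of 27 models tested, with 5 differences above 0 and 8 below. An endoplasmin, the HSP90 of the endoplasmic reticulum, Nitab4.5_0000337g0060, was at 55.6, 41.6 and 12.6 in the overexpression libraries, against 62.2, 32.9 and 35.0 in wild type. Nitab4.5_0001622g0050 was at 5.20, 6.54 and 5.25 in the overexpression libraries, against 8.38, 10.3 and 7.36 in wild type, without overlap (unadjusted p = 0.0675, limma adjusted p = 0.999). The HSP100/Clp list, which holds the disaggregases that work on aggregates bound by small heat shock proteins beside Clp protease subunits, had 9 of 26 models tested, 3 above 0 and 6 below. It summed to 38.8, 34.9 and 35.2 in the overexpression libraries, against 42.5, 45.7 and 39.9 in wild type, without overlap, and no p is given for a sum. As a share of the library total the groups overlapped, at 0.00815, 0.00772 and 0.00800% in the overexpression libraries, against 0.00923, 0.0101 and 0.00703% in wild type. Within it Nitab4.5_0007669g0010 was at 2.68, 5.18 and 15.1 in the overexpression libraries, against 4.08, 5.59 and 18.7 in wild type, and Nitab4.5_0001485g0200 at 3.86, 3.20 and 0.46 in the overexpression libraries, against 7.65, 3.28 and 2.58 in wild type.

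J proteins, which pass substrates to HSP70, had 125 of 262 models tested, with 54 differences above 0 and 71 below. Nitab4.5_0005579g0030 was at 29.3, 24.2 and 25.9 in the overexpression libraries, against 16.9, 17.0 and 9.39 in wild type, higher without overlap (unadjusted p = 0.0199, limma adjusted p = 0.999). The most abundant one, Nitab4.5_0001781g0190, was at 187, 155 and 159 in the overexpression libraries, against 176, 159 and 180 in wild type, with overlap. Co-chaperones had 9 of 23 models tested, with 4 differences above 0 and 5 below. The BAG family releases substrates from HSP70. Its model Nitab4.5_0013021g0030 was at 17.2, 16.2 and 12.1 in the overexpression libraries, against 27.3, 46.6 and 6.62 in wild type. Another, Nitab4.5_0000721g0290, was at 16.7, 19.0 and 14.2 in the overexpression libraries, against 18.1, 18.8 and 35.4 in wild type. The groups overlapped in both.

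The chaperonin pattern had 57 of 159 models tested, but 82 of the 159 were alcohol dehydrogenases, whose description holds the words GroES-like. Both models that were lower at an unadjusted p below 0.05 in this list were of that kind, among them Nitab4.5_0005392g0080, at 18.6, 11.5 and 8.36 in the overexpression libraries, against 56.4, 29.0 and 22.5 in wild type. The most abundant model of the list was also of that kind, Nitab4.5_0019070g0010, at 183, 217 and 285 in the overexpression libraries, against 249.7, 315 and 277 in wild type, with overlap. Of the 28 tested models that were not, 20 had differences above 0 and 8 below. Among these the Cpn10 co-chaperonin Nitab4.5_0006582g0030, a lid of the chaperonin barrel in chloroplasts and mitochondria, was at 45.4, 51.5 and 45.8 in the overexpression libraries, against 59.0, 61.2 and 136 in wild type, without overlap (unadjusted p = 0.0866, limma adjusted p = 0.999).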

How the data were processed

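RNA from 6 chilled leaf libraries was sequenced in pairs with TruSeq kits, per the labels' protocols. HISAT2, StringTie and RSEM are named per the submitters' processing notes, without versions or settings, and no genome build is named. The deposited signal is an abundance that the authors normalized, in 1 table per plant material. Whether it is TPM or FPKM, and whether the tables were normalized together, is not stated, so levels set across the tables assume comparable libraries, which the scalings tried below probe. No counts or depths were used, so no counting intervals are given and the count test planned for counts did not apply.

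Abundances were transformed to log2(value + 1). Models averaging at least 1 over all 6 libraries, 17962 in number, entered limma 3.58.1 under R 4.3.3 (group alone, robust empirical Bayes with a trend, 4 residual degrees of freedom), with Benjamini-Hochberg adjustment over all of them. The method was run on simulated data with 200 changed models, where it missed most of the smaller changes. The changed models were all more abundant than most tested members, so the run says little about members of low level. A model that was not called may still have changed. No pair of the 6 libraries shared more than 1.53% of values exactly.

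The members and lists were chosen with earlier results of these data known. Values in every library are given for the 12 most abundant members, tested members without overlap between groups, the 5 highest and 5 lowest differences, the 4 widest within-group ranges (both at a mean of at least 5) and the 4 smallest p, and for 2 models per chaperone list. Others named were chosen after their values were seen. Alternatives were a pseudocount of 0.1, other filters, scalings, a block for the replicate number, and each library left out in turn. A block with equal totals, leaving out both replicates 3, the chaperonin list without alcohol dehydrogenases and overlap at equal totals were added after seeing the data. The authors' group means were not used.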

Additional observations from a re-analysis of the deposited data

How the results depend on the processing

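No member and no chaperone list model was called under any alternative run, with a smallest adjusted p over the members of 0.682, and at an unadjusted p below 0.05, with no adjustment, 5 members passed. The number of called models overall was 1, and 0 with a pseudocount of 0.1, no filter, equal totals, median-ratio scaling, the replicate block with or without equal totals, any library left out (0 to 0) or both replicates 3 left out. Members at an unadjusted p below 0.05 numbered 4 to 7 over the alternatives, all lower except 2 of 6 without overexpression replicate 3 and 1 of 6 with the block and equal totals. The numbers do not establish pairs: deviations from the group means correlated at 0.56, -0.11 and 0.42 between same-numbered libraries 1, 2 and 3, and overexpression library 2 correlated best with wild-type library 1. With the replicate block 1183 models had an unadjusted p below 0.05, against 507 without it, and 6 members against 5.

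The following counts cover the 22 members chosen by the rules above, not the others named. Of the 22, 14 kept the sign of their log2 difference throughout. In 15, leaving out 1 library changed the sign of that difference or moved it by over 1.5 times. With equal totals, with or without the block, it became 0.092 in Nitab4.5_0000527g0170, 0.0044 in Nitab4.5_0005515g0040 and 0.080 in Nitab4.5_0000613g0130. Without both replicates 3 it became 0.065 in Nitab4.5_0000527g0170, 0.10 in Nitab4.5_0000349g0150, 0.24 in Nitab4.5_0000613g0130, -0.21 in Nitab4.5_0000464g0040 and 0.11 in Nitab4.5_0000010g0300. With 1 library left out, the lowest and highest values were -0.14 and 0.19 (Nitab4.5_0000527g0170), -0.097 and 0.49 (Nitab4.5_0002469g0050), -0.30 and 0.074 (Nitab4.5_0005515g0040), -0.17 and 0.48 (Nitab4.5_0006887g0020), -0.16 and 0.21 (Nitab4.5_0000613g0130), -0.30 and 0.37 (Nitab4.5_0000464g0040) and -1.42 and 0.41 (Nitab4.5_0000010g0300). The cause was not tested. Depth is unknown.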
